A study of Mus musculus and Homo sapiens with 4 samples.

Results

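A list of 35 interferon-response genes was followed in the 2 human libraries of the study, VCaP and VCaP ERα. The genes were taken by symbol from a list of interferon-response genes that uses no threshold on the values, although it was drawn up with earlier results of these data known. For each symbol the entry with the highest mean RPKM was used. All 35 symbols were present among the 25932 deposited entries, each on a single entry, and no member was listed at 0 in either library.

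Interferons are secreted antiviral cytokines. A cell senses foreign or misplaced nucleic acid through receptors such as RIG-I, produces interferon, and the interferon then binds cell-surface receptors that act through the JAK1 and TYK2 kinases. STAT2 and IRF9 belong to the ISGF3 complex, which enters the nucleus and switches on interferon-stimulated genes whose products block virus entry, translation and replication. Tumour cell lines can carry part of this programme constantly, without infection.

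VCaP is an established prostate cancer cell line, and the VCaP ERα cells were made from it by stable overexpression of ERα, the oestrogen receptor encoded by ESR1. Both were kept in DMEM with serum, VCaP at passages 5 to 6 and VCaP ERα at passages 4 to 5, and no interferon treatment or added hormone is given for these samples. RNA was depleted of ribosomal RNA and sequenced in strand-specific libraries, which the labels also mark as poly-A-, with 1 library per condition. The design thus offers no replicate check of any difference, and P-values are not given. Whether the VCaP ERα cells were a single clone is not given in the sources used here. The values are RPKM (read numbers scaled for entry length and for library size), and the number of reads behind them is unknown, so no counting interval could be attached to them.

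ESR1 had 15.7 RPKM in VCaP against 209 in VCaP ERα, the direction the labels give. Marker lists were set beside the cell type labels. The prostate and breast luminal lists were drawn up with earlier results of these data known, so they are no independent check. All 11 prostate luminal markers were higher in VCaP ERα, as were 11808 of all 24675 symbols. Their median was 0.176 RPKM in VCaP (range 0 to 8.18) and 179 RPKM in VCaP ERα (range 3.16 to 694). KLK4 and FOLH1 were listed at 0 in VCaP. All 8 breast luminal markers were lower in VCaP ERα, as were 10501 of all 24675 symbols, with medians of 60.6 and 2.61 RPKM. On these lists the levels in the library labelled VCaP went against its prostate label, and every difference below moves with these lists. Their part in the interferon-response values was not tested. No marker of leukocytes (9 genes) or endothelium (4 genes) reached 1 RPKM in either library, and of 7 fibroblast markers only COL1A1 did, with 1.18 RPKM in VCaP ERα. Of all entries, 33.8% were listed at 0 in VCaP and 13.9% in VCaP ERα.

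Most of the interferon-response genes were lower in VCaP ERα. The log2 ratio of VCaP ERα to VCaP, taken after adding 1 to each RPKM value, was below 0 for 26 of the 35 genes, against 42.6% of the 24675 entries that represent all symbols. Among genes with 1 RPKM or more in either library, 21 of 27 members (77.8%) were below 0, against 64.0% of all such symbols. The median over the 35 genes was -1.19, and the median over all symbols was 0. Over the 9754 entries with 1 RPKM or more in each library the median was -0.59, and when the ratios were centred on it 21 members were lower and 14 higher, against 26.9% of all symbols lower. Centring lifts symbols listed at 0 in both libraries above 0, so the 26.9% follows in part from the shift. The median of all symbols became 0.59 by this shift, while that of the 9754 entries became 0 by construction. In bulk RNA a lower value from fewer cells that express a gene and from less of its RNA per cell cannot be told apart. A log2 ratio below -2 was found for 11 members (31.4%), against 6.82% of all symbols. Below -1 there were 19 members (54.3%), against 19.2% of all symbols. In the opposite direction 2 members were above 1 (5.71%), against 9.51% of all symbols, and 0 members were above 2, against 2.35%.

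The share below -2 depends on the starting level, because with the added 1 only genes above 3 RPKM in VCaP can reach it. Of the members 60.0% exceeded 3 RPKM in VCaP, against 36.6% of all symbols. Of these 21 members 11 were below -2, against 18.6% of the 9038 symbols above 3 RPKM in VCaP. Of these symbols 48.0% were below -1. Such a grouping uses 1 of the compared libraries and is not independent of the ratio either. The genes were therefore also set out by their mean RPKM over both libraries. The 12 members with a mean of 5 RPKM or more were all below -1, with a median log2 ratio of -3.25, whereas all symbols at that level had a median of -0.81 and 44.8% of them were below -1. This grouping is not independent of the ratio: 10 of the 12 members reached 5 RPKM only in VCaP, and only ISG15 and LGALS3BP reached it in both libraries, as did 61.6% of all symbols at that level. The values at that level are therefore given as a description. The 14 members between 1 and 5 RPKM had a median of -1.01, against -0.44. The 9 members under 1 RPKM had a median of -0.07, against 0.13, and ratios at this level say little because the added 1 outweighs the values.

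**Figure D1:**
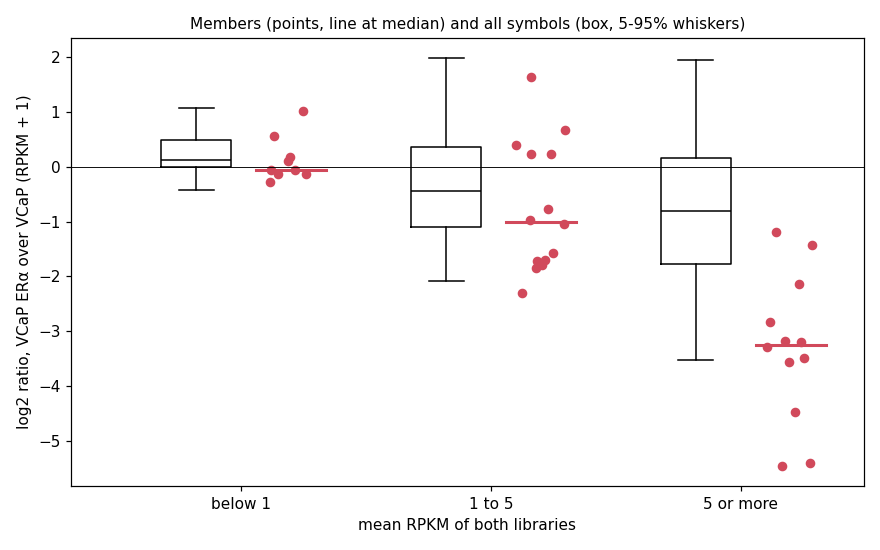
Log2 ratio of VCaP ERα to VCaP (RPKM plus 1) by mean RPKM of both libraries. Boxes show the quartiles of all symbols with whiskers at the 5th and 95th percentiles, points are the members and red lines their medians; at 5 RPKM or more the 12 members lie below -1, around a median of -3.25, and 10 of them reach 5 RPKM only in VCaP.

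Among the sensors, DDX58, the RIG-I helicase that detects viral RNA ends, had 7.71 RPKM in VCaP against 2.83 in VCaP ERα. IFIH1, the MDA5 helicase that detects long double-stranded RNA, had 3.24 and 1.15 RPKM. Both were lower in VCaP ERα, with log2 ratios of -1.19 and -0.98.

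All 4 transcription factors on the list were lower in VCaP ERα, under each scaling of the libraries that was tried. All 4 were above 3 RPKM in VCaP, a level at which 7124 of 9038 symbols were lower. As deposited all 4 were below -1, against 48.0% of these symbols. IRF9, the DNA-binding part of ISGF3, had 23.0 RPKM in VCaP against 1.61 in VCaP ERα, a log2 ratio of -3.20. Its entry (hg18, chromosome 14, 23699569 to 23705614) lies wholly inside the span of the entry for RNF31, which had 16.0 and 1.44 RPKM, so that reads of these neighbours may not have been separated. STAT2, the activating part of ISGF3, had 16.6 and 3.01 RPKM, a log2 ratio of -2.13. IRF7, which amplifies interferon production, had 9.70 and 2.99 RPKM. IRF1, an activator best known from the response to interferon gamma, had 6.50 and 1.29 RPKM, and its log2 ratio of -1.71 lay between those of IRF7 (-1.42) and STAT2.

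**Figure D2:**
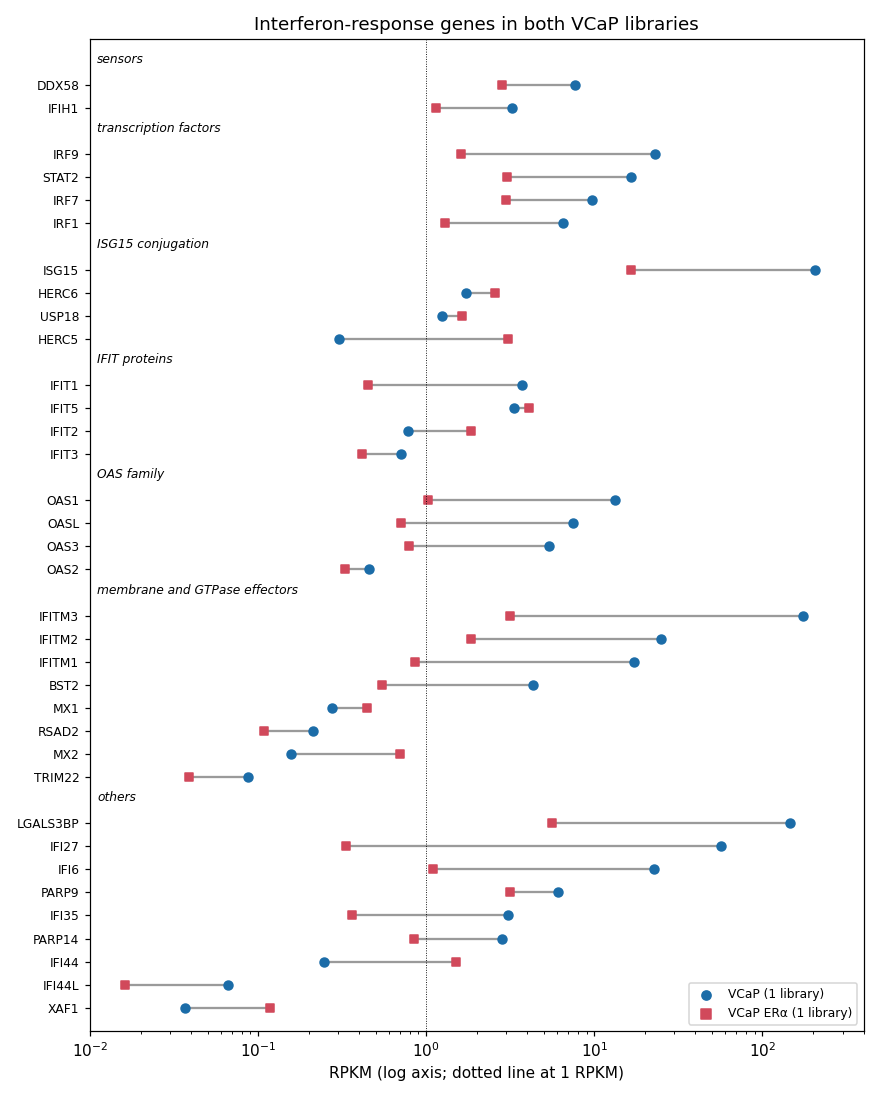
RPKM of the 35 genes (log axis) in the VCaP library (blue circles) and the VCaP ERα library (red squares), grouped by role, 1 library each. Long lines run leftwards from VCaP to VCaP ERα for genes such as IFI27, IFITM3, LGALS3BP and ISG15, and the longest line in the other direction is that of HERC5.

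The ISG15 conjugation system did not move as a block. ISG15, a ubiquitin-like protein that is attached to other proteins, was the most abundant member in both libraries (hg18, chromosome 1, 938710 to 939782), with 207 RPKM in VCaP against 16.5 in VCaP ERα, a log2 ratio of -3.57. Its partners showed the reverse order. HERC5, the main ligase that attaches ISG15, had 0.304 RPKM in VCaP against 3.07 in VCaP ERα, a log2 ratio of 1.64 and the highest of the list. HERC6, a related ligase, had 1.73 and 2.58 RPKM. USP18, the protease that removes ISG15 and also dampens receptor signalling, had 1.25 and 1.64 RPKM. The directions of ISG15, HERC5, HERC6 and USP18 were kept under each scaling.

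The IFIT proteins bind viral RNA and hinder its translation, and their genes lie side by side on chromosome 10. IFIT1, which recognises RNA lacking cap methylation, had 3.72 RPKM in VCaP against 0.450 in VCaP ERα, a log2 ratio of -1.70. IFIT5, which lies next to it, had 3.33 and 4.06 RPKM. IFIT2, which promotes cell death when abundant, had 0.779 and 1.84 RPKM, a log2 ratio of 0.68. IFIT3, which stabilises IFIT1, had 0.706 and 0.413 RPKM, and its ratio (-0.27) is within the shift of 0.59 that centring adds to each gene, so that its sign changes there by construction. The 4 genes thus differed in direction within 1 cluster. The entries of IFIT1, IFIT2 and IFIT3 lie wholly inside the span of LIPA, which had 22.2 and 6.39 RPKM.

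The oligoadenylate synthetases make the second messenger that activates RNase L. OAS1 (hg18, chromosome 12, 111829122 to 111854373) had 13.3 RPKM in VCaP against 1.03 in VCaP ERα, a log2 ratio of -2.82. OAS3 had 5.42 and 0.788 RPKM, a log2 ratio of -1.84. OASL, a relative without the enzymatic activity that enhances RIG-I signalling, had 7.44 and 0.711 RPKM, a log2 ratio of -2.30. OAS2 was below 1 RPKM in both libraries, at 0.457 and 0.328 RPKM, with a log2 ratio of -0.13 that becomes positive by construction when ratios are centred on expressed entries. OAS1, OAS3 and OASL were lower under each scaling.

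The IFITM genes encode small membrane proteins that stop enveloped viruses from fusing with the cell, and they gave some of the largest differences. IFITM3 (hg18, chromosome 11, 309673 to 310914) had 175 RPKM in VCaP against 3.15 in VCaP ERα, a log2 ratio of -5.40. IFITM2 had 24.9 and 1.85 RPKM, and IFITM1 had 17.2 and 0.858 RPKM, with log2 ratios of -3.19 and -3.29. All 3 stayed below -2 under each scaling. These paralogues are very similar in sequence, so reads of the abundant IFITM3 could have been assigned to the others, and their separate levels are uncertain. BST2, or tetherin, which holds budding virus at the cell surface, had 4.33 and 0.544 RPKM, a log2 ratio of -1.79.

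Other classical antiviral effectors were barely expressed in either library. MX1, a dynamin-like GTPase often used as a read-out of interferon action, had 0.277 RPKM in VCaP against 0.444 in VCaP ERα. Its neighbour MX2 had 0.157 and 0.699 RPKM. RSAD2, the viperin enzyme, had 0.211 and 0.108 RPKM, and TRIM22, a ubiquitin ligase active against retroviruses whose entry lies inside the span of TRIM5, had 0.0866 and 0.0387 RPKM. No member of this group of 4 reached 1 RPKM. The sign of MX1 changed under quantile normalization and those of RSAD2 and TRIM22 under centring, whereas MX2 was higher in VCaP ERα under each scaling.

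The remaining 9 genes held the widest range. IFI27, a small protein of mitochondria and nuclear envelope, had 57.1 RPKM in VCaP against 0.332 in VCaP ERα, the lowest log2 ratio of the list at -5.45 (hg18, chromosome 14, 93646832 to 93652786). IFI6, a relative of IFI27 that protects against cell death, had 22.5 and 1.11 RPKM, a log2 ratio of -3.48. LGALS3BP, a secreted glycoprotein that binds galectins, had 145 and 5.63 RPKM, a log2 ratio of -4.46. These 3 genes stayed below -2 under each scaling. IFI35 had 3.08 and 0.362 RPKM. PARP14, a mono-ADP-ribosyltransferase, had 2.82 and 0.849 RPKM, and its relative PARP9 had 6.05 and 3.14 RPKM, a log2 ratio of -0.77 that shrank to -0.04 under quantile normalization. IFI44 was higher in VCaP ERα, at 1.51 against 0.246 RPKM in VCaP. Its neighbour IFI44L was almost unexpressed, with 0.0662 RPKM in VCaP against 0.0161 in VCaP ERα, and so was XAF1, a cell death gene, with 0.0367 and 0.118 RPKM. The sign of IFI44L changed under centring and that of XAF1 under quantile normalization, whereas IFI44 was higher in VCaP ERα under each scaling.

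The values just inside and outside the size of -2 were those of STAT2 (-2.13) and OASL (-2.30) on one side and OAS3 (-1.84) and BST2 (-1.79) on the other. When the ratios were centred on expressed entries, STAT2 and OASL no longer passed -2, and the 9 members that passed it under each scaling were IFI27, IFITM3, LGALS3BP, ISG15, IFI6, IFITM1, IRF9, IFITM2 and OAS1.

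The summed RPKM of the 35 genes was 771 in VCaP and 67.0 in VCaP ERα, or 0.288% and 0.0340% of the RPKM of all entries. ISG15, IFITM3, LGALS3BP and IFI27 made up 75.7% of the sum in VCaP. Without these 4 genes the sums were 187 and 41.4 RPKM. In VCaP 10 members reached 10 RPKM, and in VCaP ERα only ISG15 did, while the share of all symbols at that level was 19.5% in VCaP and 12.1% in VCaP ERα.

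Percentile ranks within a library, which need no scaling between libraries, gave a similar picture. The median member stood at percentile 67.4 of all entries in VCaP and at 56.0 in VCaP ERα. The rank was lower in VCaP ERα for 28 members (80.0%) and higher for 7, against 51.7% of all symbols with a lower rank. Among genes with 1 RPKM or more in either library it was lower for 21 of 27 members, against 48.8% of all such symbols. MX1 and XAF1 had a lower rank despite a higher RPKM. In VCaP 7 members stood above percentile 90, against 1 in VCaP ERα. IFI27 moved from percentile 96.9 to 34.2 and HERC5 from 46.9 to 73.2. Because more entries were listed at 0 in VCaP, low genes there are pushed to higher percentiles than equally low genes in VCaP ERα. Across the 35 genes the levels in both libraries had a Spearman's rho of 0.56, a description across genes that share the same pair of libraries.

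Several members lie in gene clusters, and their neighbours were examined to see how local the differences were. At the IFITM locus on chromosome 11 the 3 members had log2 ratios from -5.40 to -3.19, and the 10 flanking entries, 5 on each side, ranged from -2.10 to 0.75 with a median of -0.92. Of these flanking entries 8 were also lower in VCaP ERα, 5 of them below -1. At the OAS locus on chromosome 12 the members ranged from -2.82 to -0.13 and the flanking entries from -2.20 to 1.01, with 6 of 10 lower and 3 below -1. At the HERC locus on chromosome 4 HERC5 and HERC6 were higher in VCaP ERα, and so were 9 of the 10 flanking entries, with a median of 1.01. PARP9 and PARP14 (-0.77 and -1.05) were close to their flanking entries on chromosome 3, with a median of -0.70. MX2 and MX1 on chromosome 21 lie beside TMPRSS2, an androgen-regulated prostate gene that had 8.18 RPKM in VCaP against 208 in VCaP ERα, while MX1 and MX2 stayed under 1 RPKM in both.

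**Figure D3:**
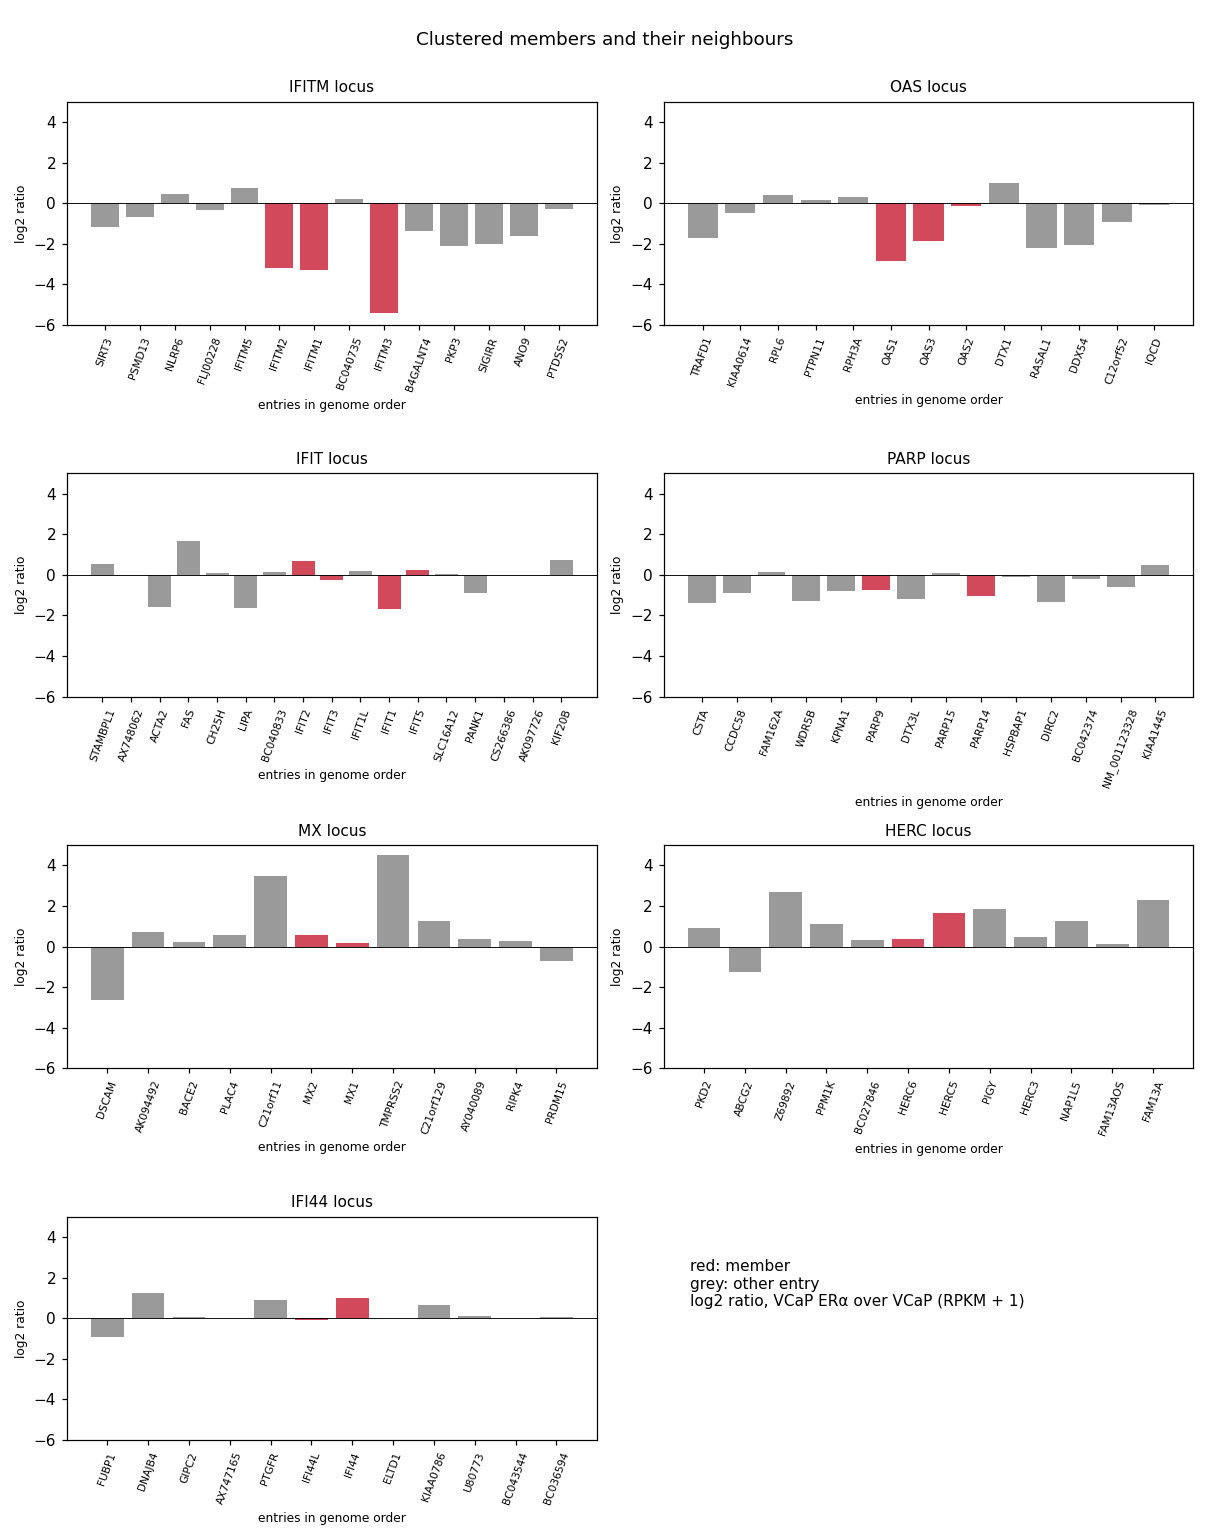
Log2 ratio of VCaP ERα to VCaP (RPKM plus 1) for clustered members (red) and the other entries within and beside each cluster (grey), in genome order. At the IFITM locus the 3 red bars reach below every grey bar, whereas at the HERC locus red and grey bars point upwards together except for ABCG2 (-1.23).

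The same comparison was made for each of the 35 genes with the nearest 5 entries on either side that neither overlapped it nor belonged to the list, a description chosen after the values had been seen. The log2 ratio was below that of all 10 neighbours for 15 members (42.9%), against 8.49% of all symbols when each was set against its own nearest entries. Among these were all 11 members below -2, for which being low is what selected them, and of all symbols below -2 the share was 60.0%. The 8.49% is not matched for level: 36.6% of all symbols exceeded 3 RPKM in VCaP, against 60.0% of the members. Members of 1 cluster, such as the IFITM genes, also share most of their neighbours and are not separate comparisons. The neighbour medians of the 11 genes below -2 ran from -1.66 for IRF9 to 0.57 for LGALS3BP. LGALS3BP, on distal chromosome 17 (hg18, 74478932 to 74487656), differed from its neighbour median by -5.03 log2 units, and IFI27 from its own by -5.57. USP18 differed from its neighbour median by less than 0.01.

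Other genes of the interferon pathway were described from 6 further lists of 106 genes, all of which were found. IFNAR2 and IL10RB share 1 entry. Over these genes the median log2 ratio was -0.21, against 0 over all symbols. When centred on expressed entries it was 0.38, against 0.59 over all symbols. Here and below, that 0.59 is the shift that centring adds to a median of 0. As deposited, 34 were below -1 (32.1%, against 19.2% of all symbols) and 20 were below -2 (18.9%, against 6.82%). In the other direction 4 were above 1 (3.77%, against 9.51%) and 0 were above 2, against 2.35%. The interferons themselves were near silent in both libraries. Of 21 ligand genes 18 were listed at 0 in VCaP and 18 in VCaP ERα, including all interferon alpha genes of the list and the gene for interferon beta, and the highest value was 0.487 RPKM for IL28B in VCaP ERα.

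The receptor genes IFNAR1, IFNAR2, IFNGR1 and IFNGR2 were above 1 RPKM in both libraries. IL28RA, a further receptor gene of the list, was below 1 RPKM in both, at 0.278 RPKM in VCaP and 0.636 in VCaP ERα. IFNAR1 had 5.28 RPKM in VCaP against 8.69 in VCaP ERα, and the entry of IFNAR2 had 4.37 and 4.74 RPKM. IFNGR1, a chain of the interferon gamma receptor, had 30.5 and 23.6 RPKM. IFNGR2, its other chain, stood at 12.0 and 37.6 RPKM, a log2 ratio of 1.57 and the highest of these lists. The kinases that act on the type I receptor were lower in VCaP ERα. JAK1 had 37.0 and 3.86 RPKM (log2 ratio -2.97), and TYK2 had 10.5 and 1.33 RPKM (-2.30).

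Of the 10 other STAT and IRF factors 8 were lower in VCaP ERα, against 42.6% of all symbols. Of symbols with 1 RPKM or more in either library 64% were lower, and 8 of the 10 factors reached that level. The list had a median log2 ratio of -1.79, which was -1.20 after centring and -1.03 after quantile normalization. Over all symbols these medians were 0, 0.59 and -0.02. STAT3, which acts downstream of many cytokines, had 30.9 RPKM in VCaP against 6.81 in VCaP ERα, a log2 ratio of -2.03. IRF3 (-2.08), the factor that starts interferon production, and IRF2BP2 (-2.45) were also below -2. IRF2BP2 is an IRF2-binding protein rather than an IRF factor, and it and a relative count among the 10. IRF2, a repressor that competes with IRF1, had 9.57 and 8.34 RPKM.

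Sensing adaptors and kinases went both ways, and their median log2 ratio of 0.04 depended on the treatment of low genes and on scaling. It was -0.86 over those of 1 RPKM or more in either library, against -0.50 over all such symbols. After centring it was 0.63, against 0.59 over all symbols. TRIM25, the ligase that activates RIG-I, had 39.6 RPKM in VCaP against 3.97 in VCaP ERα, a log2 ratio of -3.03. IKBKE, a kinase of IRF3 and IRF7, had 7.09 and 0.464 RPKM, while its relative TBK1 had 10.2 and 13.0 RPKM. MAVS, the mitochondrial adaptor of RIG-I, had 17.7 and 4.26 RPKM. Among 8 negative regulators TRIM28 was just below -2, at 71.4 and 17.1 RPKM, and PIAS1 was higher in VCaP ERα, at 18.5 and 30.3 RPKM.

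Of 46 other effectors 36 were lower in VCaP ERα, 9 were higher and GBP5 was listed at 0 in both, against 42.6% of all symbols lower. The share lower was 64% among symbols with 1 RPKM or more in either library, a level that 33 of the 46 effectors reached. Their median log2 ratio was -0.77, or -0.18 after centring, against 0 and 0.59 over all symbols. LY6E, a surface protein inducible by interferon, had 251 RPKM in VCaP against 23.3 in VCaP ERα. SAMD9, PLSCR1, SP110, GBP2, IFI30, TRIM38, WARS, TRIM21 and ISG20 were the others below -2; GBP2, a guanylate-binding protein, went from 7.26 RPKM to a listed 0. The E1 enzyme of ISG15, UBA7, had 0.0419 RPKM in VCaP against 0.888 in VCaP ERα, and the E2 enzyme UBE2L6 had 1.67 and 2.73 RPKM. Both ratios were positive, as for HERC5 and unlike ISG15. UBA7 stayed below 1 RPKM in both libraries, where ratios say little, and UBE2L6 had a log2 ratio of 0.48. These 2 genes were named after their values were seen. CXCL10, a chemokine induced by interferon gamma, had 0.124 and 1.42 RPKM.

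**Figure D4:**
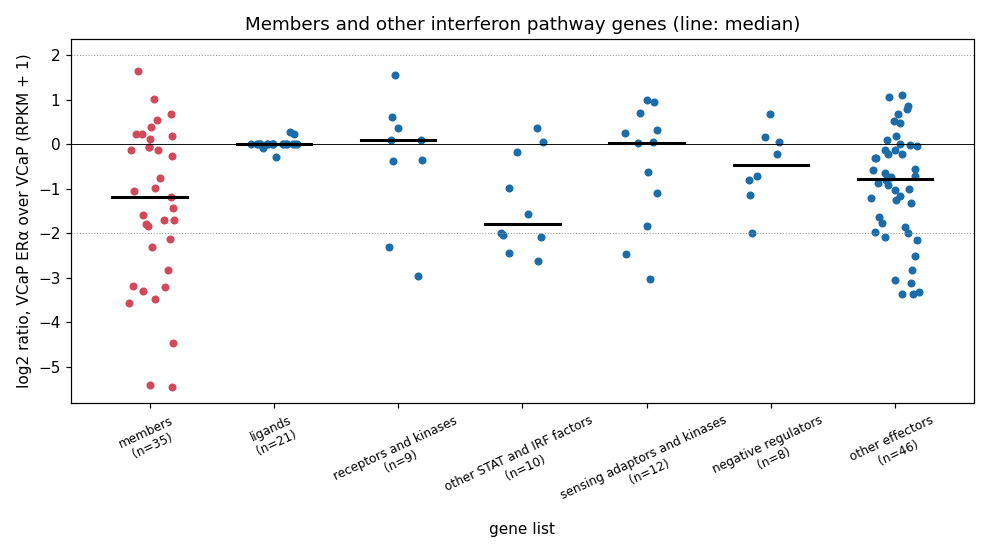
Log2 ratio of VCaP ERα to VCaP (RPKM plus 1) for the members (red) and 6 further interferon pathway lists (blue); each point is a gene and black lines are medians, with dotted lines at 2 and -2. No gene lies above 2, and the ligands sit at or near 0 because most were listed at 0 in both libraries.

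The study also holds poly-A libraries of mouse embryonic fibroblasts from C57BL/6 embryos (E13.5, passages 2 to 3), 1 from wild-type and 1 from NEAT1 knockout (KO) embryos. Mouse genes matched by symbol, such as Oas1a for OAS1, were found there for 29 of the 35 genes. They are called orthologues here, but whether each pair is a true orthologue was not checked. In KO all 29 had the higher value, and the share of all mouse symbols with a higher value was not computed. Their median log2 ratio was 1.77, against 0 over all mouse symbols. Of the 29 genes 21 were above 1, against 0.977% of all 23329 mouse symbols. The same 29 genes in the human comparison had a median of -1.42, with 22 below 0, against 42.6% of all human symbols. Among human symbols with 1 RPKM or more in either library that share was 64%. For 13 genes the mouse value was above 1 and the human value below -1, a count for which no share over all genes was computed. Among them was Isg15, which stood at 20.8 RPKM in the wild type against 319 in KO. Usp18, unlike USP18 in the human libraries, went with Isg15, from 5.85 to 88.0 RPKM. The species' values were normalized separately and their libraries were prepared differently, so only directions within a species were read.

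**Figure D5:**
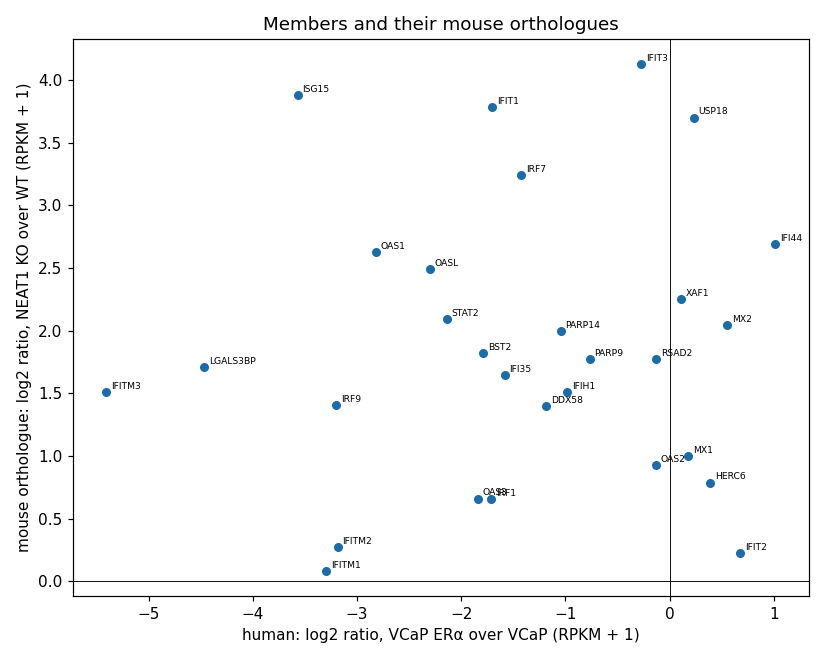
Each point is 1 of 29 genes. The human log2 ratio (VCaP ERα over VCaP) is on the horizontal axis. That of the mouse gene matched by symbol (NEAT1 KO over wild type) is on the vertical axis, both from RPKM plus 1. All points lie above 0 vertically, and 22 lie left of 0.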

How the data were processed

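RNA sequencing libraries of VCaP and VCaP ERα cells (ribosomal RNA depleted, dUTP strand marking, labelled poly-A-) and of wild-type and NEAT1 KO mouse fibroblasts (poly-A) were used, 1 per condition. The authors computed and deposited RPKM values per entry, with known-gene identifiers, symbols and coordinates. The submitters' processing notes name CASAVA 1.8 and the builds hg18 and mm10. The aligner, the counter and whether counting used strand are not given in the sources used here.

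Ratios were taken from these RPKM values on the log2 scale after a pseudocount of 1 was added, where differences of low genes are understated. The background was 1 entry per symbol, the entry with the highest mean. With 1 library per condition no test was run, and sizes of 1 and 2 on the log2 scale served as descriptive limits. The named genes were all 35 members, genes of the other lists past 2 or -2 with 1 RPKM in a library, ESR1, and receptors, kinases and factors that bear on the members. IL28B, MAVS, IKBKE, TBK1, PIAS1, UBA7, UBE2L6, CXCL10, GBP5, LIPA, RNF31, TRIM5, TMPRSS2, ABCG2, KLK4, FOLH1 and COL1A1 were added after their values were seen. Some genes of these lists are not reported here. The members and lists were chosen with earlier results of these data known.

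As alternatives the pseudocount was set to 0.1, entries under 1 RPKM in both libraries were left out, and values were changed by centring on entries with 1 RPKM in both libraries, quantile normalization, summing of entries per symbol and, chosen after seeing the data, an equal RPKM sum. A log2 value was taken as moved beyond 0.58 and a count beyond 1.5 times. The shares of all symbols for ranks and neighbours were also added after seeing the data. Promoter motifs were planned but not analysed here, because no human promoter sequences were used. Scripts were tested on simulated data. Python 3.11.15, numpy 2.4.6, pandas 2.3.3, scipy 1.17.1 and matplotlib 3.10.9 were used.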

Additional observations from a re-analysis of the deposited data

How the results depend on the processing

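Centring adds the same amount to each ratio, whereas quantile normalization moved genes by different amounts and in both directions, for example IFIT5 from 0.23 to 0.91 and MX1 from 0.18 to -0.24. The 9754 expressed entries (1 RPKM or more in each library) had a median log2 ratio of -0.59 as deposited, 0 by construction after centring, 0.02 after quantile normalization and -0.23 with equal RPKM sums. The median of the 35 genes was -1.19, -0.60, -0.69 and -0.85 in that order, against 0, 0.59, -0.02 and 0.08 over all symbols. The 0.59 is the shift that centring adds to a median of 0. The number below -2 was 11, 9, 10 and 10, while the share of all symbols below -2 was 6.82%, 3.49%, 4.00% and 4.94%. Of the 35 genes 21 were lower and 7 higher under each scaling. The other 7, each under 1 RPKM in both libraries, changed sign, 5 of them only through the shift that centring adds. Of all symbols 42.6%, 26.9%, 51.7% and 36% were below 0 under these scalings in the same order. The share of all symbols that kept 1 direction under each scaling was not computed. Members above 1 numbered 4 after centring and 1 after quantile normalization, against 25% and 13.2% of all symbols, and members above 2 numbered 1 after centring, against 4.96%. With a pseudocount of 0.1 there were 4 members above 1, 2 above 2 and 16 below -2, against 29.5%, 16.9% and 11.9% of all symbols. Of the 106 other pathway genes, 13 were above 1 and 9 above 2 with the pseudocount of 0.1, against the same 29.5% and 16.9%. Their median was -1.09 with the minimum of 1 RPKM and 0.38 after centring, against -0.50 and 0.59 over all symbols. After centring 13 were above 1, 1 above 2 and 9 below -2, against 25%, 4.96% and 3.49% of all symbols. After quantile normalization 1 was above 2 and 10 below -2, against 4.02% and 4.00%, and with equal RPKM sums 8 were above 1 and 13 below -2, against 14.9% and 4.94%. The mouse median was 2.40 with the pseudocount of 0.1. The depth of the libraries is unknown, so differences among genes under 1 RPKM cannot be given a precision. No paired analysis was possible because each condition has 1 library.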
